A study of Homo sapiens with 12 samples.

Results

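SUDHL6 is an established human cell line of diffuse large B-cell lymphoma with a germinal centre phenotype. The cells were exposed to GSK591, which inhibits the arginine methyltransferase PRMT5, and the quantity described here is how the effect of the drug changed between 24 h and 96 h. For each gene this quantity, called the difference, is the log2 fold change of GSK591 over vehicle at 96 h minus the log2 fold change of GSK591 over vehicle at 24 h. It used all 12 of the 12 libraries of the series, 3 in each of 4 groups. These were vehicle (0.01% DMSO) for 24 h, 200 nM GSK591 for 24 h, vehicle (0.01% DMSO) for 96 h and 200 nM GSK591 for 96 h. All 4 groups shared the cell line and the medium, and no genetic change was named. Poly(A)-selected RNA was sequenced and counted per gene. Of 23368 gene symbols found at both times, 11786 reached a CPM (count scaled to the library total) of 1 in at least 3 libraries and were tested.

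PRMT5 works with its partner WDR77 and places symmetric dimethyl marks on arginines of many proteins. Among the best known of these are the Sm proteins, which after methylation are loaded by the SMN complex onto small nuclear RNAs to make the particles that splice pre-mRNA, and histones, where the mark is linked to silencing. In germinal centre B cells the repressor BCL6 holds back plasma cell genes, checkpoint genes and activation genes while the cells divide, and the series title links PRMT5 to BCL6 and to the survival of lymphoma cells. Transcripts may respond to an enzyme inhibitor early, late or in opposite ways over time, and the difference asks which genes did which.

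All 10 germinal centre B-cell markers were above 1 CPM, with a summed level of 7720 to 9300 CPM, and none of the markers of T and NK cells, myeloid cells, fibroblasts, epithelium, erythroid cells or platelets reached 1 CPM on average in any group. Of the latter, the myeloid sum was highest in GSK591 at 96 h, at 0.748 to 1.32 CPM, with CD14 at 0.869 CPM, against 0.193 to 0.522 CPM in 96 h vehicle. The fibroblast sum was also highest there, at 0.434 to 1.26 CPM with COL1A1 at 0.728 CPM, against 0.174 to 0.508 CPM in 96 h vehicle and 0.0365 to 0.0948 CPM in 24 h vehicle. The part of these cell types in the results was not tested. Total counts lay between 48.48 and 64.36 M (mega) in 11 libraries and were 547.9 M in vehicle replicate 1 at 96 h, which is 10.2 times the median of the rest. The spread between replicates was wider at 96 h than at 24 h, with a biological coefficient of variation of 8.1% against 2.34%. Both 96 h libraries numbered 2 stood apart from the others of their groups. Whether the 3 samples of a group were separate cultures is not stated, so p-values cover only the spread between these samples, and that may be technical. Each time had its own vehicle, so a shift shared by the 6 libraries of a time cancels in the difference, but no source used here says whether libraries of different times were prepared together. Such a shift does not cancel in a change of vehicle, or of GSK591, libraries between the times. Wherever such a change is given below, time and preparation cannot be told apart.

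Most genes whose drug effect changed had a small or undetected effect at 24 h and a larger one at 96 h. The difference was called (adjusted p under 0.05, edgeR's quasi-likelihood test over all 12 libraries) in 3317 of 11786 genes, or 28.1%, of which 1531 were higher (13%) and 1786 lower (15.2%). A positive, or higher, difference means that the drug effect moved upwards from 24 h to 96 h. Which side held more calls depended on the processing. With library sizes alone as the scaling 1738 were higher and 1530 lower, and with no expression filter 1215 and 1958. Called differences had a median size of 0.356 on the log2 scale, and 145 reached 2-fold, 119 of them higher and 26 lower. The expression filter asked for 1 CPM in any 3 libraries, so a gene could pass through the group where it was high. Such a gene can show a large difference, and how many of the 145 passed in this way was not worked out. The split into 119 and 26 is thus a description only. In 2907 of the called genes (87.6%) the GSK591 libraries moved more between the times than the vehicle libraries, in 410 (12.4%) vehicle moved more, and in 907 (27.3%) they moved in opposite directions. Called genes were selected for the difference, which equals the GSK591 movement minus the vehicle movement, and this selection can raise such shares. The same shares over all genes tested were not worked out, so these describe the called genes only. In every fit that left out 1 of the 12 libraries 1764 genes (15%) stayed called. The count was 2063 without vehicle replicate 3 at 24 h, 2028 without GSK591 replicate 2 at 24 h and 5536 without GSK591 replicate 2 at 96 h. Without both 96 h libraries numbered 2 it was 5791, of which 2804 were higher and 2987 lower. The higher calls alone were 973 and 2773 without vehicle replicate 3 at 24 h and GSK591 replicate 2 at 96 h. Lower calls numbered 1090 and 993 without vehicle replicate 3 and GSK591 replicate 2 at 24 h, and 1140 and 2763 without GSK591 replicates 1 and 2 at 96 h.

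**Figure D1:**
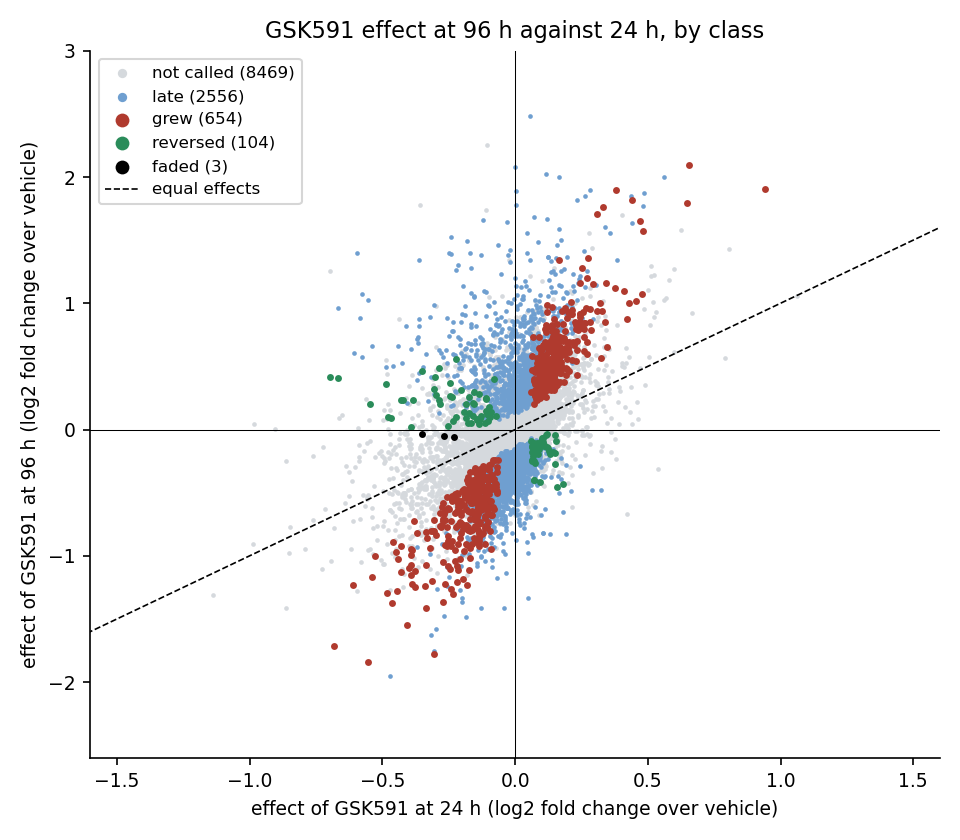
Effect of GSK591 at 96 h (vertical axis) against 24 h (horizontal axis), both log2 fold change over the vehicle of the same time, with 1 point per gene tested (11786). Colours give the class of the 3317 called genes, and the dashed line marks equal effects. The 654 genes that grew lie in the quadrants of equal sign beyond the line, the 2556 late genes sit around 0 on the horizontal axis, the 104 reversed genes fill the other quadrants and the 3 faded genes lie near 0 on the vertical axis.

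To sort the called genes, the 24 h effect was also tested in its own 6 libraries, where 1965 genes (16.7%) were called, and the 96 h effect in its own 6, where 5053 (42.9%) were called. Genes called at 24 h whose effect was larger with the same sign at 96 h are said to have grown (654, 5.55%), those with a smaller effect of the same sign to have faded (3, 0.0255%) and those with an effect of opposite sign to have reversed (104, 0.882%). The remaining 2556 (21.7%) had no called effect at 24 h and are named late, which does not show that they had none then. Since the classes are cut from the same effects that make up the difference, the sizes in each class are a description. Leaving out replicate 2 of vehicle, or 1 or 3 of GSK591, made the 24 h count 1053, 957 and 1059, and without vehicle replicate 2 or GSK591 replicate 1 the 96 h count was 3298 and 3210. Late genes numbered 1584 and 1484 without vehicle replicate 3 and GSK591 replicate 2 at 24 h, 4365 without GSK591 replicate 2 at 96 h, and 4574 without both 96 h libraries numbered 2.

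The 24 h and 96 h fits share no library, so the early effect can be set beside the later one directly. Of the 1965 genes called at 24 h, 1759 (89.5%) had an effect of the same sign at 96 h, against 69% of all genes tested. Among them 1290 were called in the same direction at 96 h, 34 in the opposite direction, and 641 were not called. Over all genes tested these numbers were 4049, 1004 and 6733. The median ratio of the 96 h to the 24 h effect was 2.02 in the genes called at 24 h, against 1.78 over all genes tested. Among the genes called at 24 h it was 2.26 for the 994 higher genes and 1.82 for the 971 lower ones. Selection for a call at 24 h can raise the 24 h effect and so lower the ratio. Over all genes tested many 24 h effects were near 0 (median size 0.0608) and ratios of opposite signs are negative, so 2.02 and 1.78 are not like measures. For early rises 685 were called again as rises and 14 as falls, and for early falls 605 were called again as falls and 20 as rises.

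Genes that grew upwards (351, with a median effect of 0.136 at 24 h and 0.5 at 96 h) were led among well-expressed genes by ENPP3, LUC7L, SLC30A4 and MYBL1. LUC7L, a U1-associated splicing factor, stood at 44.0, 45.3 and 45.9 CPM in vehicle and 50.8, 50.6 and 50.1 CPM in GSK591 at 24 h. By 96 h LUC7L stood at 46.1, 40.6 and 45.3 CPM in vehicle and 118.9, 107.1 and 109.4 CPM in GSK591. Vehicle thus stayed at one level while the treated libraries were slightly higher at 24 h and far higher at 96 h, with no overlap at either time. (Over all genes tested the groups did not overlap in 33.6% at 24 h and in 57.2% at 96 h.) The LUC7L effect went from 0.16 to 1.34, a difference of 1.18 ± 0.07 (SE, adjusted p = 3.4e-06). MYBL1, a MYB-family transcription factor of the germinal centre, stood at 95.8, 90.5 and 97.8 CPM in vehicle and 115.5, 112.9 and 114.0 CPM in GSK591 at 24 h, and at 92.3, 95.1 and 92.1 against 207.0, 238.2 and 197.3 CPM at 96 h. Its difference was 0.93 ± 0.08 (adjusted p = 8.5e-05). ENPP3, an ectonucleotidase, lay between 38.6 and 40.9 CPM in GSK591 at 24 h and at 185.7, 130.5 and 161.2 CPM at 96 h, where the library numbered 2 was lowest. Vehicle for ENPP3 also moved up between the times, from 29.96 to 33.5 CPM at 24 h to between 38.9 and 51.2 CPM at 96 h, and the difference was 1.43 ± 0.17 (adjusted p = 0.00031). The zinc transporter gene SLC30A4 had a difference of 1.02 ± 0.17.

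Downward growth (303 genes, median effect -0.16 at 24 h and -0.614 at 96 h) was led by RRM2, FAH, OXCT1 and TYMS. RRM2, the regulated subunit of ribonucleotide reductase, which makes the building blocks of DNA, stood at 266.5, 284.3 and 269.6 CPM in vehicle and 211.3, 235.7 and 216.9 CPM in GSK591 at 24 h. At 96 h its vehicle libraries were at 178.4, 236.8 and 179.1 CPM and its GSK591 libraries at 42.1, 78.8 and 51.5 CPM. The library numbered 2 was the highest of its group in both 96 h groups, and the groups still did not overlap. The effect on RRM2 went from -0.31 to -1.78 (difference -1.47 ± 0.24, adjusted p = 0.0016). FAH, the last enzyme of tyrosine breakdown, OXCT1, a mitochondrial enzyme of ketone body use, and TYMS, which makes thymidylate, had differences of -1.08, -1.07 and -1.05. The number of genes that grew was 343, 337 and 425 without vehicle replicates 1, 2 and 3 at 24 h, 297 and 321 without GSK591 replicates 1 and 3 at 24 h, and 1008 without GSK591 replicate 2 at 96 h (1030 without both 96 h libraries numbered 2).

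Late genes made up most of the calls, 1123 higher (median effect 0.017 at 24 h and 0.423 at 96 h) and 1433 lower (-0.0142 and -0.333), and 2360 of them were called at 96 h in its own libraries. LCK, a SRC-family kinase best known from T cells, stood at 145.0, 146.1 and 148.7 CPM in vehicle and 150.2, 153.5 and 152.5 CPM in GSK591 at 24 h. At 96 h the values were 116.0, 105.9 and 118.7 CPM in vehicle and 296.2, 177.1 and 261.3 CPM in GSK591. Library 2 of GSK591 was far below the other treated libraries but above every vehicle library, and the difference was 1.05 ± 0.18 (adjusted p = 0.0021). The 7 markers of T and NK cells, CD3D, CD3E, CD3G, CD2 and CD8A among them, summed to between 0.181 and 0.353 CPM in vehicle and between 0.194 and 0.464 CPM in GSK591 at 96 h, with 2 and 4 of them at 0. Other late rises were CABP4, a calcium-binding protein gene (1.30), PRELP, a matrix proteoglycan (1.20), and PPP2R5B, a regulatory subunit of protein phosphatase 2A (1.08).

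Late falls were led by TXN, which encodes thioredoxin, a redox protein that also feeds electrons to ribonucleotide reductase. TXN stood at 38.0, 41.1 and 38.0 CPM in vehicle and 36.9, 37.3 and 37.7 CPM in GSK591 at 24 h. It was lower in all libraries of 96 h, at 23.0, 27.5 and 22.01 CPM in vehicle and 9.06, 12.5 and 10.3 CPM in GSK591. Its difference was -1.11 ± 0.14 (adjusted p = 0.00049). The mitochondrial genes ALDH1B1, an aldehyde dehydrogenase, and ACAD9, an assembly factor of respiratory complex I, had differences of -0.95 and -0.82, and TMEM141 had -0.81.

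**Figure D2:**
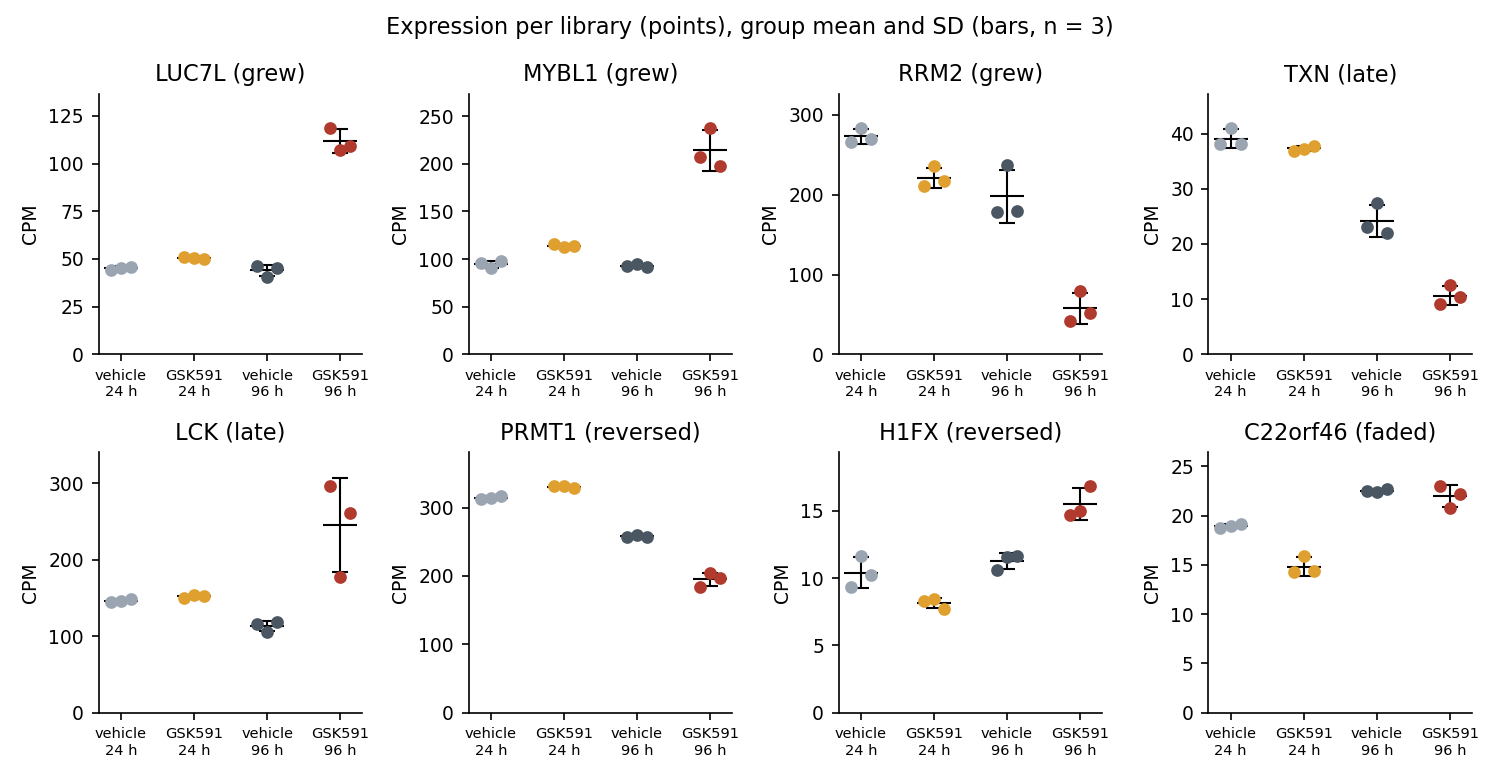
Expression of 8 genes in CPM (vertical axis, from 0) in each of the 12 libraries (points), by group (horizontal axis), with the group mean and SD (n = 3) as bars. LUC7L and MYBL1 were high in GSK591 at 96 h, RRM2 and TXN were low there, PRMT1 and H1FX changed the side on which the treated group lay, and C22orf46 was lower in GSK591 at 24 h and level with vehicle at 96 h.

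Reversals were few and small. Of the 104 genes 50 were higher at 24 h and lower than vehicle at 96 h, and 54 the other way round, with a median effect size of 0.121 at 24 h and 0.142 at 96 h. In 34 of them the 96 h effect was called in its own libraries as well, 14 turning down and 20 turning up. The total was 49, 48 and 51 without vehicle replicates 1, 2 and 3 at 24 h and 39 and 35 without GSK591 replicates 1 and 3 at 24 h, and it was 165 without both 96 h libraries numbered 2. For the 34 called at both times the count fell to between 14 and 19 without any of 9 libraries (vehicle replicates 1 and 2 and GSK591 replicates 1 and 3 at 24 h, and all of 96 h but GSK591 replicate 2), and it was 58 without GSK591 replicate 2 at 96 h and 63 without both numbered 2.

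PRMT1, the main asymmetric arginine methyltransferase, was among the genes that turned from higher to lower. Its 24 h values were 312.3, 313.9 and 317.4 CPM in vehicle and 331.5, 331.5 and 328.7 CPM in GSK591. At 96 h they were 257.4, 259.6 and 257.2 CPM in vehicle and 184.5, 203.7 and 197.3 CPM in GSK591. The treated group was above vehicle at 24 h and below it at 96 h with no overlap at either time, and the effect went from 0.07 to -0.40 (difference -0.47 ± 0.05, adjusted p = 0.00027). LYAR, a nucleolar protein gene, and C21orf56 followed the same course with differences of -0.51 and -0.61. TNF, the cytokine gene, also had -0.61, but its groups overlapped at both times. Housekeeping and biosynthesis genes were also among those called at both times in opposite directions, and were chosen as examples after their values were seen: TKT of the pentose phosphate pathway (-0.47), TOMM40 of the mitochondrial import pore (-0.34), the translation factor EIF5A (-0.31), the prolyl isomerase PPIA (-0.31) and the splicing factor SRSF3 (-0.24).

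In the other direction H1FX, a linker histone gene, stood at 9.33, 11.6 and 10.2 CPM in vehicle and 8.28, 8.46 and 7.71 CPM in GSK591 at 24 h. By 96 h the values were 10.6, 11.6 and 11.6 CPM in vehicle and 14.7, 14.99 and 16.8 CPM in GSK591. Treated libraries were thus below vehicle first and above it later, with a difference of 0.82 ± 0.12 (adjusted p = 0.00094). NDRG4 (0.78) and the uncharacterized LOC100506123 (0.62) and LOC100506686 (0.57) turned in the same way. The 96 h effect of LOC100506123 was not called in its own libraries. Examples chosen after their values were seen were SOAT2, which esterifies sterols (0.77), the B-cell transcription factor HHEX (0.44), the cleavage and termination factor PCF11 (0.28) and HLA-DOB, a regulator of peptide loading on MHC class II (0.35).

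Of the called genes 3 had faded, a class that is hard to reach, since the difference of a faded gene cannot exceed its 24 h effect (median size 0.143 in the genes called at 24 h). Faded and reversed genes were also parted only by the sign of the 96 h effect, so an effect that returned to about 0 could be classed as reversed. C20orf132 was classed so, with an effect of -0.39 at 24 h and 0.02 ± 0.09 at 96 h. The numbers of faded and reversed genes are therefore no measure of how many effects returned to 0. C22orf46 stood at 18.7, 19.0 and 19.1 CPM in vehicle and 14.2, 15.9 and 14.4 CPM in GSK591 at 24 h. At 96 h it was at 22.5, 22.4 and 22.7 CPM in vehicle and 23.0, 20.8 and 22.2 CPM in GSK591, so that the groups overlapped. Its effect went from -0.35 to -0.04 (difference 0.32 ± 0.08, adjusted p = 0.01). LOC220906 and LOC339290 were the other faded genes, with differences of 0.22 and 0.18, and of the 3 only C22orf46 was called in every fit that left out 1 library. Without GSK591 replicate 2 at 96 h 9 genes faded, and without both 96 h libraries numbered 2 there were 22.

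PRMT5 itself, its partner WDR77, BCL6 and some further genes were looked at by name. PRMT5 stood at 132.4, 134.2 and 124.6 CPM in vehicle and 131.3, 131.0 and 128.5 CPM in GSK591 at 24 h. By 96 h vehicle was at 90.1, 94.3 and 85.0 CPM and GSK591 at 86.8, 84.3 and 85.6 CPM. The transcript was lower at 96 h in vehicle and treated cells alike, the groups overlapped at both times, and the difference was not called (-0.07 ± 0.06, adjusted p = 0.41). WDR77 went from an effect of -0.06 to -0.38 (difference -0.32 ± 0.06, adjusted p = 0.0031).

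MYC, the transcription factor that drives growth and ribosome production, stood at 299.0, 297.5 and 285.8 CPM in vehicle and 312.7, 309.5 and 292.0 CPM in GSK591 at 24 h. At 96 h its vehicle values were 321.7, 373.0 and 330.7 CPM and its GSK591 values 226.1, 280.3 and 251.2 CPM. The groups overlapped at 24 h and separated at 96 h, with a difference of -0.49 ± 0.10 (adjusted p = 0.0048). BCL6 stood between 431.8 and 435.1 CPM in vehicle and between 441.8 and 447.3 CPM in GSK591 at 24 h. At 96 h its ranges were 458.5 to 469.7 and 505.8 to 539.4 CPM, so the treated group was higher at both times by little. The BCL6 difference was 0.15 ± 0.05 (adjusted p = 0.031, range 0.000728 to 0.158 over the alternatives), and the call was lost in 6 of the 12 fits that left out 1 library. These were the fits without vehicle replicate 1 or 3 at 24 h (adjusted p = 0.069 and 0.0722), GSK591 replicate 2 or 3 at 24 h (0.0507 and 0.0715), vehicle replicate 3 at 96 h (0.0519) and GSK591 replicate 1 at 96 h (0.0524).

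CDKN1A, the cell cycle inhibitor p21, stood at 131.0, 163.4 and 159.3 CPM in vehicle and 125.6, 151.4 and 137.0 CPM in GSK591 at 24 h. At 96 h vehicle was at 44.9, 43.5 and 44.0 CPM and GSK591 at 26.6, 32.3 and 28.6 CPM. Vehicle was 1.78 lower on the log2 scale at 96 h than at 24 h, against effects of -0.13 and -0.60 of the drug, and the difference was -0.46 ± 0.13 (adjusted p = 0.018, range 0.00051 to 0.0787 over the alternatives, and 0.059 without GSK591 replicate 2 at 24 h). Neither MDM2 (0.14 ± 0.07, adjusted p = 0.15) nor CCND2 (0.54 ± 0.29, adjusted p = 0.18) passed. PRDM1, which drives plasma cell fate, stayed under the expression threshold and was not tested. Its range was 0.797 to 1 CPM in vehicle and 0.592 to 0.729 CPM in GSK591 at 24 h, and 0.181 to 0.198 CPM and 0.239 to 0.272 CPM at 96 h.

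Lists of genes by role were then read against the background of all genes tested, 13% higher and 15.2% lower, with a median difference of -0.0083. For arginine methyltransferases and the PRMT5 complex 6 of 11 were lower and none higher (median -0.18). Besides PRMT1 and WDR77 these were CLNS1A, the subunit that brings Sm proteins to PRMT5 (-0.40), PRMT10 (-0.25), PRMT6 (-0.19) and CARM1 (-0.18). The count was 3 with library sizes alone in place of TMM factors. It was also 3 without vehicle replicate 3 or GSK591 replicate 2 at 24 h, and at 96 h without replicate 2 of vehicle, or 1 or 3 of GSK591.

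Among Sm, LSm and SMN-complex genes, whose products build the splicing particles, 16 of 29 were lower and 1 higher (median -0.25). The median effect was 0.017 at 24 h and -0.218 at 96 h, 16 of the called members were late and 1 had reversed. SNRPA of the U1 particle stood at 137.1, 138.8 and 139.8 CPM in vehicle and 139.7, 140.9 and 140.0 CPM in GSK591 at 24 h. By 96 h the values were 121.9, 135.2 and 119.8 CPM in vehicle and 84.5, 99.3 and 88.5 CPM in GSK591. Groups overlapped at 24 h and separated at 96 h (difference -0.48 ± 0.08, adjusted p = 0.0017). GEMIN4 of the SMN complex (-0.32 ± 0.05) was the other member picked by rule, SNRPF had the lowest difference of the list (-0.59), and the Sm protein genes SNRPD1, SNRPD2, SNRPE, SNRPG and SNRPD3 had -0.41, -0.34, -0.33, -0.39 and -0.25. SNRPB was the member that reversed (effect 0.09 at 24 h and -0.19 at 96 h), and GEMIN2 the member called higher (0.20), a call lost without vehicle replicate 1 or 3 at either time. Vehicle cells moved down too, with a median of -0.199 between the times against -0.474 in treated cells.

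Splicing factors and splicing kinases went the other way in part, with 10 of 37 higher and 5 lower (median 0.027), and 8 had grown from a called effect at 24 h. PRPF3, a factor of the U4/U6 particle, stood at 75.1, 72.8 and 73.8 CPM in vehicle and 99.5, 101.2 and 96.1 CPM in GSK591 at 24 h. At 96 h vehicle was lower, at 54.8, 57.3 and 53.3 CPM, while GSK591 was at 103.1, 99.8 and 101.1 CPM. Treated PRPF3 levels were therefore alike at both times and vehicle was lower at the later one (difference 0.46 ± 0.05, adjusted p = 0.00029). LUC7L, PRPF39 (0.40), CLK4, a kinase of SR proteins (0.37), SF3B1 of the U2 particle (0.33), PRPF4B (0.33) and SMNDC1 (0.31) were also higher. The lower members were SRSF1 (-0.25), SRSF3 (-0.24), PRPF38A (-0.19), SF3B3 (-0.18) and PRPF31 (-0.16), and 3 members were lower without vehicle replicate 1 or 3 at 24 h, GSK591 replicate 2 or 3 at 24 h, or GSK591 replicate 1 at 96 h. Without both 96 h libraries numbered 2 there were 14 higher and 8 lower.

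**Figure D3:**
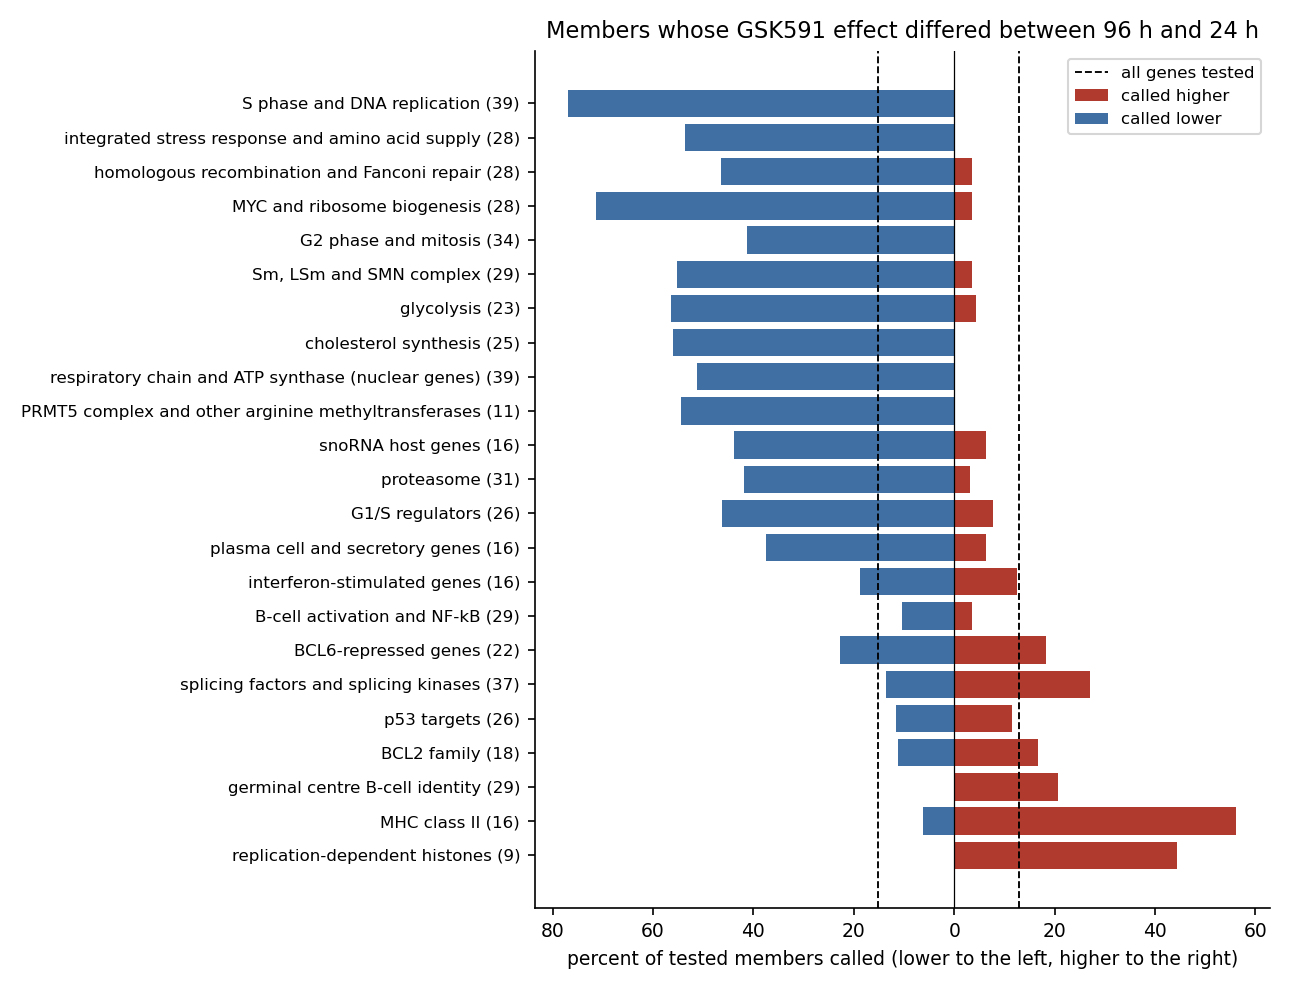
Share of the tested members of each list whose difference was called lower (blue, to the left) or higher (red, to the right), in percent, with the number tested in parentheses. Dashed lines give the share of all genes tested, 15.2% lower and 13% higher. The S phase list had the longest bar on the lower side at 76.9% of 39 genes, and MHC class II on the higher side at 56.2% of 16.

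DNA replication genes had the lowest median difference of all lists. In S phase and DNA replication 30 of 39 were lower and none higher (median -0.557, from an effect of -0.0891 at 24 h to -0.668 at 96 h), of which 19 had grown and 11 were late, and 25 were called in every fit that left out 1 library. Between the times the median moved by -0.285 in vehicle and by -0.837 in treated cells. Besides RRM2 and TYMS, POLA2, the accessory subunit of DNA polymerase alpha, had -0.72 ± 0.09 and FEN1, the flap endonuclease of lagging-strand synthesis, -0.59 ± 0.08. CDC45 and CDC6, which load and start the replicative helicase, had -1.02 and -0.86. PCNA, the sliding clamp, stood at 274.4, 285.6 and 270.8 CPM in vehicle and 244.0, 263.2 and 256.3 CPM in GSK591 at 24 h, and at 169.5, 209.4 and 172.1 against 89.5, 121.3 and 101.3 CPM at 96 h (difference -0.70 ± 0.14). Relative to the vehicle mean of 96 h, the mean log2 level of the list was -0.824, -0.440 and -0.705 in GSK591 replicates 1 to 3 and -0.074, 0.147 and -0.073 in vehicle, so both libraries numbered 2 were shifted upwards. Without both of them 37 of 39 were lower. Whether a shift in the share of cells in a phase or in RNA per cell gave these values cannot be told apart in bulk RNA.

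E2F factors switch on replication genes at the start of S phase, and promoters of 4 members of the replication list are shown because they hold an E2F motif and the members had different outcomes (chosen after their values were seen). The sequences are from RefSeq, build GRCh38.p14, and give the 250 bases before the gene's start, 5′ to 3′ on the gene's strand, with the motif in capitals. PCNA is at chr20:5126623-5126872 on the minus strand, POLA1, which encodes the catalytic subunit of polymerase alpha, at chrX:24693668-24693917 on the plus strand, TYMS at chr18:657403-657652 on the plus strand, and RFC3, a subunit of the clamp loader, at chr13:33817899-33818148 on the plus strand.
PCNA: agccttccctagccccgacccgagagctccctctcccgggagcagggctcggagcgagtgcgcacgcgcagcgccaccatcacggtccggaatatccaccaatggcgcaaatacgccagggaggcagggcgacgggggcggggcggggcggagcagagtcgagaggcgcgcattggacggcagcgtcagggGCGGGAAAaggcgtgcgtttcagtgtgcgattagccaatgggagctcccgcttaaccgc
POLA1: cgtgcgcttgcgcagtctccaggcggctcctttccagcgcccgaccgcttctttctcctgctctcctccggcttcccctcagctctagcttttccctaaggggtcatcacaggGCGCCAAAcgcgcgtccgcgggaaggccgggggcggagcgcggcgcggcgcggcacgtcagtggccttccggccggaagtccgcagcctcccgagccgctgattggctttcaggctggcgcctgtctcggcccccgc
TYMS: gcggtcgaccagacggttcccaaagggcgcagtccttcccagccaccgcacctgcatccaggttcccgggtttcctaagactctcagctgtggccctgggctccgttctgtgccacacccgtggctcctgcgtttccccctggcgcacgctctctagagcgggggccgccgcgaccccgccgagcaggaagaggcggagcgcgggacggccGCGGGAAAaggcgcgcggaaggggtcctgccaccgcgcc
RFC3: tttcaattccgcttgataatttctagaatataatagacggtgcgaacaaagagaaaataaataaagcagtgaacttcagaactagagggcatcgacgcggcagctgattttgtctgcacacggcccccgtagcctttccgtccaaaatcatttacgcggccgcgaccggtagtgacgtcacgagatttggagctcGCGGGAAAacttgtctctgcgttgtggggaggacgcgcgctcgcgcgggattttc
The motif begins 59, 137, 39 and 55 bases before the start of PCNA, POLA1, TYMS and RFC3. PCNA, POLA1 and TYMS were called lower (-0.70, -0.62 and -1.05), and RFC3 was not called, at 0.06 ± 0.06. RFC3 stood at 172.4, 177.1 and 170.4 CPM in vehicle and 162.3, 171.3 and 163.6 CPM in GSK591 at 24 h, and at 163.6, 181.7 and 165.1 against 176.8, 166.6 and 166.1 CPM at 96 h. Its groups overlapped at both times. The letters searched were TTTCCCGC and TTTGGCGC on both strands. They were found in 12 of the 35 replication promoters with a sequence (34.3%, 35 of 39 members matched), against 1.96% of all 27305 promoters of the table and 3.26% of the 9241 that belong to genes tested. Of the 12 members with the motif 8 were called lower (66.7%), and of the 23 without it 19 were (82.6%).

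G1/S regulators were lower in 12 of 26 and higher in 2 (median -0.15). CCNE2, a cyclin of S phase entry, stood at 56.7, 59.2 and 56.3 CPM in vehicle and 46.7, 52.6 and 48.8 CPM in GSK591 at 24 h, and at 32.9, 41.9 and 33.96 against 14.2, 20.7 and 15.9 CPM at 96 h. Its groups did not overlap at either time (difference -0.87 ± 0.16, adjusted p = 0.0031). CDC25A, a phosphatase that activates cyclin-dependent kinases, had -0.75 ± 0.14, and the kinases CDK4 and CDK2 had -0.48 and -0.25. RBL2, a pocket protein that restrains E2F, and CCND1 were the higher members (0.13 and 0.85), with CCND1 at no more than 1.49 CPM, and both calls were lost without any 1 of the 6 libraries at 24 h, without vehicle replicate 2 at 96 h or without GSK591 replicate 1 at 96 h. Higher members were 1 without vehicle replicate 1 or 3 or GSK591 replicate 3 at 96 h, and 5 without GSK591 replicate 2 at 96 h.

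Genes of G2 phase and mitosis were lower in 14 of 34 and higher in none (median -0.282), in a list that stood higher at 96 h than at 24 h in vehicle (median 0.42) and less so in treated cells (0.106). KIF20A, a kinesin of cell division, stood at 39.9, 39.0 and 40.3 CPM in vehicle and 36.2, 36.9 and 37.2 CPM in GSK591 at 24 h. At 96 h its vehicle libraries were at 61.0, 76.2 and 59.5 CPM and its treated libraries at 33.9, 45.4 and 36.4 CPM, so vehicle had moved up and treated cells had hardly moved. Its difference was -0.65 ± 0.14 (adjusted p = 0.0067). MKI67, the proliferation marker, had -0.34 ± 0.07, CCNA2 -0.58, CDK1 -0.48 and TOP2A -0.36. This count rested on single libraries. It was 8, 7 and 7 without vehicle replicates 1 to 3 and 8, 4 and 7 without GSK591 replicates 1 to 3 at 24 h, 8 without vehicle replicate 2 at 96 h, and 5, 23 and 8 without GSK591 replicates 1 to 3 at 96 h. Without both 96 h libraries numbered 2 it was 26.

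Promoters of mitotic genes often hold pairs of CCAAT boxes, which the factor NF-Y binds, and the promoter of KIF20A is shown as the member with the lowest difference. It is the 250 bases before the start at chr5:138178862-138179111 on the plus strand (RefSeq, GRCh38.p14), with each CCAAT box, here on the opposite strand, in capitals.
KIF20A: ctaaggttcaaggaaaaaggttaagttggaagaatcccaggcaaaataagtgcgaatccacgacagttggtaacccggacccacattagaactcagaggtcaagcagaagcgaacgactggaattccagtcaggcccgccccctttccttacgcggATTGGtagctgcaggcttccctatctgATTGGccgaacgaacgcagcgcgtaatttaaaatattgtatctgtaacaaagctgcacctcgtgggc
CCAAT was found on either strand in 21 of the 28 mitotic promoters with a sequence (75%, 28 of 34 members matched), against 33% of all 27305 promoters of the table and 36% of the 9241 of genes tested. Of the 21 members with it 11 were called lower, and of the 7 without it 2 were. A high share was not particular to the mitotic list. It was 78.9% in cholesterol synthesis, 57.1% in S phase and DNA replication and 56.5% in the integrated stress response list. In the other lists searched it lay between 27.3% and 40%.

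In homologous recombination and Fanconi repair 13 of 28 were lower and 1 higher (median -0.304). EXO1, an exonuclease of DNA end resection, had -0.65 ± 0.12, and FANCI, which is ubiquitinated at stalled forks, -0.66. The higher member was ATM, the kinase that signals double-strand breaks, which stood at 303.1, 282.0 and 285.2 CPM in vehicle and 326.4, 312.8 and 307.5 CPM in GSK591 at 24 h. At 96 h it was at 361.4, 299.1 and 358.4 CPM in vehicle and 684.4, 783.2 and 553.1 CPM in GSK591 (difference 0.87 ± 0.14, adjusted p = 0.0017). Lower members numbered 6, 5 and 5 without vehicle replicates 1 to 3 and 6, 4 and 7 without GSK591 replicates 1 to 3 at 24 h, 4 without vehicle replicate 2 at 96 h, and 5, 20 and 6 without GSK591 replicates 1 to 3 at 96 h (20 without both numbered 2).

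**Figure D4:**
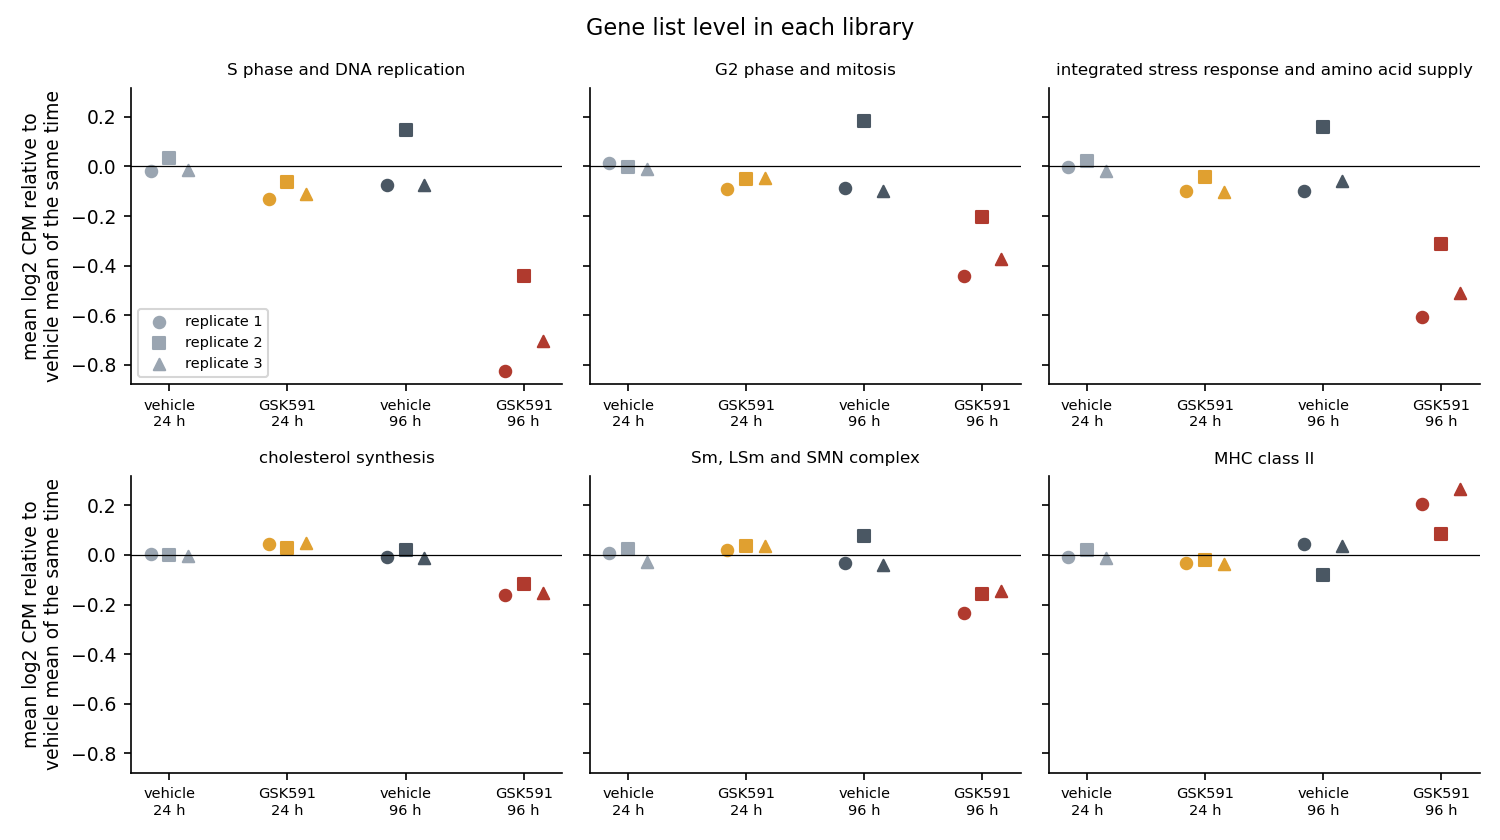
Mean log2 CPM of 6 gene lists in each library, relative to the mean of the vehicle libraries of the same time (vertical axis), by group (horizontal axis), with replicates 1, 2 and 3 as circles, squares and triangles. Treated libraries at 96 h lay below vehicle for every list but MHC class II, the cholesterol list lay slightly above 0 in GSK591 at 24 h, and both 96 h libraries numbered 2 were shifted upwards for S phase, G2 phase and mitosis, and the stress response.

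MYC and ribosome biogenesis genes were lower in 20 of 28 and higher in 1 (median -0.295, from an effect of 0.0213 at 24 h to -0.257 at 96 h), on top of a vehicle change of -0.528 between the times. FBL, which methylates ribosomal RNA, had -0.51, NCL, which encodes nucleolin, -0.37, and NOP16 -0.34 ± 0.05. The higher member was NOP2, a methyltransferase of ribosomal RNA. NOP2 stood at 238.9, 239.2 and 243.6 CPM in vehicle and 269.5, 266.4 and 270.1 CPM in GSK591 at 24 h, and at 188.9, 178.5 and 186.2 against 347.4, 311.2 and 331.5 CPM at 96 h. Vehicle was lower and treated cells higher than at 24 h, without overlap at either time (difference 0.68 ± 0.06, adjusted p = 7.1e-05). Lower members numbered 13 without vehicle replicate 3 or GSK591 replicate 2 at 24 h.

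For the integrated stress response and amino acid supply 15 of 28 were lower and none higher (median -0.379). The list moved up with time in vehicle (median 0.289) and down in treated cells (-0.156). PPP1R15A, which lets translation resume after stress, stood at 90.4, 93.4 and 93.4 CPM in vehicle and 90.9, 88.4 and 90.2 CPM in GSK591 at 24 h, and at 70.1, 73.9 and 73.7 against 49.6, 49.7 and 52.2 CPM at 96 h. Its groups overlapped at 24 h only (difference -0.48 ± 0.05, adjusted p = 0.00022). EIF4EBP1, a brake on translation, had -0.57 ± 0.10, the serine synthesis enzyme PSAT1 -0.75, the pseudokinase TRIB3 -0.69 and the stress transcription factor ATF3 -1.29, with ATF3 at no more than 3.84 CPM. The count was 8 and 8 without vehicle replicates 1 and 3 and 9, 7 and 9 without GSK591 replicates 1 to 3 at 24 h, and 8, 8 and 9 without vehicle replicate 2 and GSK591 replicates 1 and 3 at 96 h.

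Cholesterol synthesis was the list with the most reversals. Of 25 genes 14 were lower and none higher (median -0.199), 9 late and 5 reversed, from a median effect of 0.0581 at 24 h to -0.147 at 96 h. FDPS, which makes farnesyl diphosphate, stood at 323.1, 328.0 and 327.5 CPM in vehicle and 336.9, 341.2 and 346.7 CPM in GSK591 at 24 h. At 96 h it stood at 386.9, 399.6 and 385.3 CPM in vehicle and 328.5, 351.2 and 331.8 CPM in GSK591. Treated levels were alike at both times while vehicle moved up, and the sides changed without overlap (difference -0.28 ± 0.05). NSDHL (-0.27), CYP51A1 (-0.21) and SQLE (-0.20) also reversed. DHCR7 and ACAT2, late members, had -0.41 ± 0.05 and -0.41 ± 0.06. Of the 5 reversals only that of FDPS was also called at 96 h in its own libraries.

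**Figure D5:**
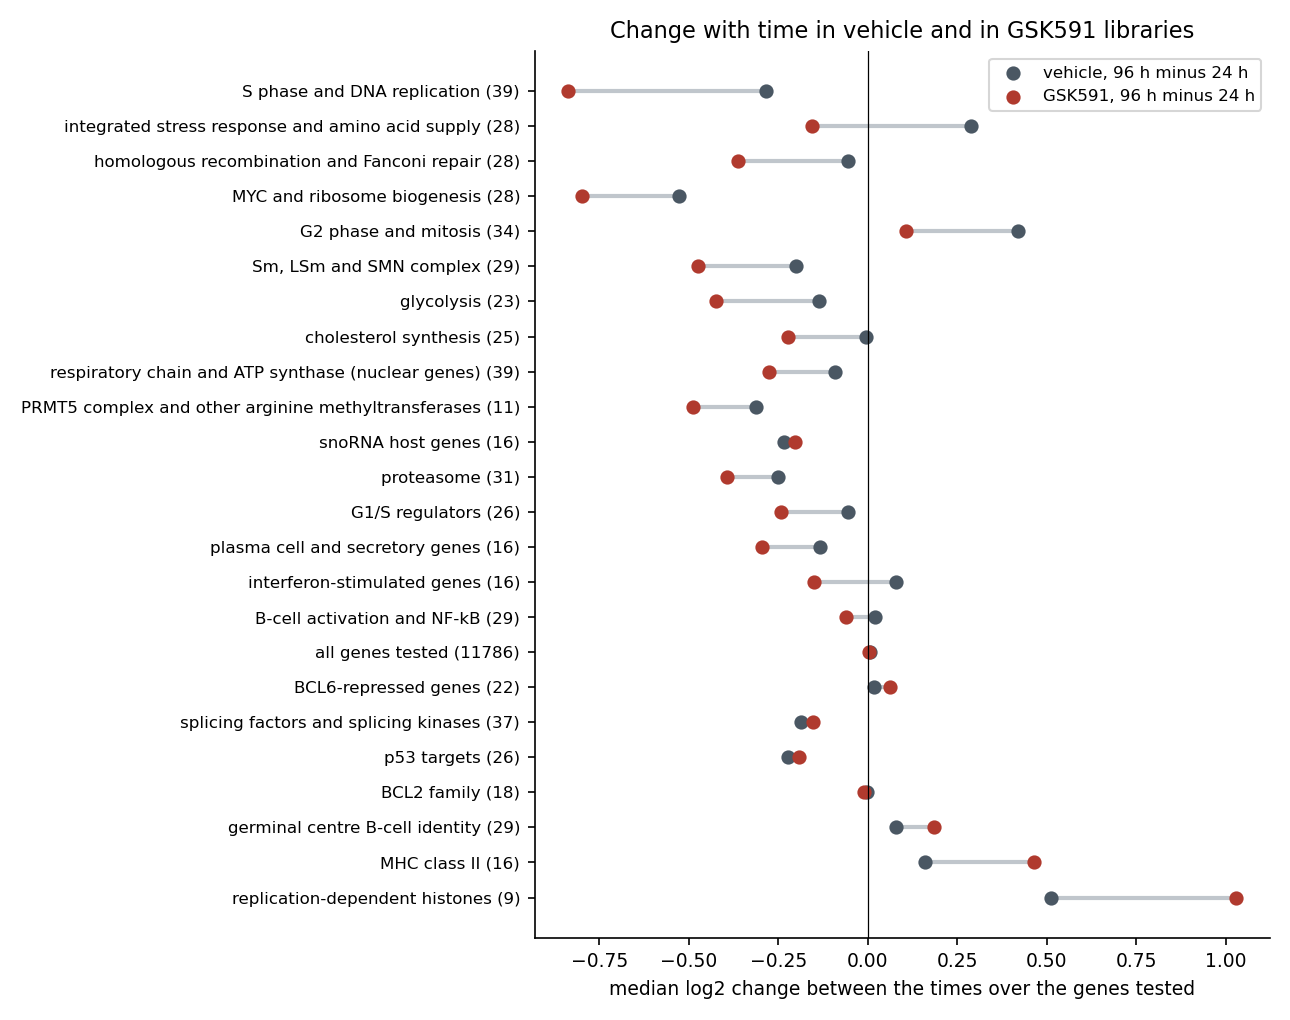
Median log2 change from 24 h to 96 h over the tested genes of each list (number in parentheses) in vehicle (dark points) and in GSK591 libraries (red points). A red point to the left of the dark point marks a list whose drug effect moved down. In the position of either point alone, time and library preparation cannot be told apart. The mitosis list moved up in vehicle (0.42) and less in GSK591 (0.106), the stress list moved up in vehicle (0.289) and down in GSK591 (-0.156), and S phase moved down in both (-0.285 and -0.837).

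In germinal centre identity 6 of 29 were higher and none lower (median 0.10), MYBL1, BACH2, a repressor of plasma cell fate (0.45 ± 0.07), CXCR5 (0.23), BCL6 and IRF8 (0.13) among them. The count was 3 without vehicle replicate 3 or GSK591 replicate 2 at 24 h or GSK591 replicate 1 at 96 h, and 15 without GSK591 replicate 2 at 96 h or without both numbered 2. Lower members were 1 without vehicle replicate 2 or GSK591 replicate 3 at 96 h, 2 without GSK591 replicate 2 at 96 h and 3 without both numbered 2. Plasma cell and secretory genes were lower in 6 of 16 and higher in 1 (median -0.12). XBP1, the transcription factor of secretory cells, stood at 17.7, 17.5 and 15.8 CPM in vehicle and 14.1, 13.2 and 13.0 CPM in GSK591 at 24 h, and at 15.4, 18.6 and 15.8 against 5.84, 8.03 and 6.98 CPM at 96 h (difference -0.90 ± 0.14). IRF4, which promotes plasma cell fate and is also on the BCL6-repressed list, was level at 24 h (40.4, 43.0 and 42.4 against 40.2, 42.0 and 43.3 CPM) and apart at 96 h (56.7, 65.2 and 58.7 against 43.8, 42.3 and 43.2 CPM). Treated IRF4 lay in the same range at both times, vehicle was higher at 96 h, and the difference was -0.48 ± 0.07 (adjusted p = 0.0013).

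BCL6-repressed genes were split, 4 of 22 higher and 5 lower (median 0.0089), with CASP8, an initiator caspase (0.46 ± 0.12), higher and IRF4, CDKN1A, CHEK1 and BCL2L1 among those lower. Only 2 were higher without vehicle replicate 1 or 3 or GSK591 replicate 2 or 3 at 24 h or GSK591 replicate 1 at 96 h, and 7 without GSK591 replicate 2 at 96 h. Lower members were 3 without vehicle replicate 2 or 3 or GSK591 replicate 3 at 24 h or vehicle replicate 2 at 96 h, and 2 without GSK591 replicate 2 at 24 h.

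MHC class II genes, which present antigen to helper T cells, were higher in 9 of 16 and lower in 1 (median 0.25). HLA-DMB, which loads peptides, stood at 397.7, 412.4 and 402.2 CPM in vehicle and 418.1, 432.5 and 421.1 CPM in GSK591 at 24 h, and at 394.1, 346.2 and 381.3 against 664.4, 561.2 and 642.8 CPM at 96 h (difference 0.67 ± 0.08, adjusted p = 0.00051). The regulators CIITA and RFX5 had 0.44 and 0.22, and RFXAP, a partner of RFX5, was the lower member (-0.37), a call that was lost without any 1 of the 6 libraries at 24 h, vehicle replicate 2 or GSK591 replicate 1 or 3 at 96 h. CIITA ranged over 53.1 to 54.4 CPM in vehicle and 54.6 to 58.4 CPM in GSK591 at 24 h, and over 72.3 to 92.0 and 116.1 to 120.4 CPM at 96 h. The count was 5 without any of vehicle replicates 1 to 3 or GSK591 replicate 3 at 24 h, or vehicle replicate 2 or GSK591 replicates 1 or 3 at 96 h. Values of near-identical HLA genes such as HLA-DRB1 and HLA-DRB5 are uncertain.

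Genes of energy supply and protein turnover had late falls. Glycolysis was lower in 13 of 23 and higher in 1 (median -0.24), with GAPDH at -0.39 ± 0.06 and ENO1 at -0.34 ± 0.05. Nuclear genes of the respiratory chain and ATP synthase were lower in 20 of 39 (median -0.19), with CYC1 and UQCRC1 of complex III at -0.43 ± 0.06 and -0.40 ± 0.06. That count was 13 and 11 without vehicle replicates 1 and 3, 12 and 13 without GSK591 replicates 2 and 3 at 24 h, and 13 without GSK591 replicate 1 at 96 h. For the proteasome 13 of 31 were lower and 1 higher (median -0.16), with PSMC3 at -0.33 ± 0.07 and PSMB4 at -0.23 ± 0.05, and 7 and 8 were lower without vehicle replicate 3 and GSK591 replicate 3 at 24 h. In these 3 lists the called falls were late for all but 3 genes, ATP5H (grown), NDUFA9 and PSMA7 (both reversed). GAPDH, often used as a reference transcript, was at 3436, 3633 and 3333 CPM in vehicle and 2592, 2688 and 2763 CPM in GSK591 at 96 h.

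In the remaining lists few members were called, or the count moved with single libraries. Replication-dependent histones were higher in 4 of 9 (median 0.43), 7 without GSK591 replicate 2 at 96 h. HIST1H2BK stood at 36.5, 35.5 and 37.0 CPM in vehicle and 39.5, 38.6 and 39.9 CPM in GSK591 at 24 h, and at 34.4, 27.8 and 35.7 against 63.8, 44.8 and 62.6 CPM at 96 h (difference 0.68 ± 0.16), and HIST1H3H had 0.66 ± 0.15. Most transcripts of these genes carry no poly(A) tail, so selection on oligo-dT sees a part of them, and near-identical copies are uncertain. Genes that host small nucleolar RNAs were lower in 7 of 16 and higher in 1, with GAS5 at -0.30 ± 0.07 and SNHG3 at 0.35 ± 0.06. That count was 4, 4 and 3 without vehicle replicates 1 to 3 and 3, 2 and 3 without GSK591 replicates 1 to 3 at 24 h, and 4 and 3 without vehicle replicate 2 and GSK591 replicate 1 at 96 h.

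Among p53 targets 3 of 26 were higher and 3 lower (median 0.055), with FDXR, a mitochondrial reductase, at -0.58 ± 0.13 and the repair gene XPC reversed from -0.14 to 0.08 (difference 0.23 ± 0.05), with the 96 h effect not called in its own libraries (adjusted p = 0.10). Higher members were 1 without vehicle replicate 3 or GSK591 replicate 2 at 24 h and 8 without GSK591 replicate 2 at 96 h, and 1 was lower without GSK591 replicate 2 at 24 h. In the BCL2 family 3 of 18 were higher and 2 lower, with BCL2L11, the death promoter BIM, at 0.34 ± 0.06 and the protector BCL2A1 at -0.85 ± 0.17, and 6 were higher without GSK591 replicate 2 at 96 h. BCL2A1 was near the expression threshold, at 1.088 to 2.355 CPM over all libraries. In that family 1 was lower without any 1 of the 6 libraries at 24 h or the 3 vehicle libraries at 96 h. For B-cell activation and NF-kB 1 of 29 was higher (NFKBID, 0.57 ± 0.12) and 3 lower, and these were 5 and 5 without GSK591 replicate 2 at 96 h. Lower members were 1 without vehicle replicate 1 or GSK591 replicate 1 at 24 h. Of the interferon-stimulated genes 2 of 16 were higher and 3 lower, and 1 was lower without vehicle replicate 1 or 3 or GSK591 replicate 1 or 2 at 24 h or GSK591 replicate 1 at 96 h. No interferon-stimulated gene was higher without vehicle replicate 1 or 2 or GSK591 replicate 3 at 24 h, and 1 was without vehicle replicate 3 or GSK591 replicate 2 at 24 h or without vehicle replicate 3 or GSK591 replicate 1 or 3 at 96 h. Shares of these 4 lists lay near the background or below it.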

How the data were processed

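Raw read counts per gene symbol were deposited by the authors in a table for each time. The submitters' processing notes name STAR, HTSeq, edgeR and the build hg19 (GRCh37), with versions, annotation and strand setting not given in the sources used here. Overlapping, antisense and near-identical genes can therefore not be told apart. The tables were joined by symbol, with 0 unused columns. Genes with a CPM of at least 1 in 3 or more libraries entered the quasi-likelihood test of edgeR (version 4.0.16 under R 4.3.3) with 4 group means and TMM factors, two-sided, with Benjamini-Hochberg adjustment over all genes and a threshold of 0.05. Effects printed come from this fit, the SE is the log2 fold change over the square root of F, and CPM follow TMM scaling. Replicates of a group differed by more than sampling noise (chi-square per degree of freedom 2.37 to 48.2 over 12 pairs). In simulated counts the fit called 34% of true differences of 0.3 and 82% of those of 0.6, and 3.8% of its calls were false. Each simulated gene had the same spread at both times, unlike these data, where the spread was wider at 96 h.

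The contrast, gene lists and rules were chosen with earlier results of these data known, and no list is independent evidence. Named genes are BCL6, PRDM1, MYC, PRMT5, WDR77, CCND2, CDKN1A and MDM2, the 4 largest differences of each class and sign with average log2 CPM of at least 3 that were called in all 12 fits leaving out 1 library, and in each list the 2 members of smallest p under the same calls. Other list members are examples chosen after their values were seen, and several genes are not reported here. Alternatives were DESeq2 1.42.0, limma voom (limma 3.58.1), other scalings and filters, a replicate block, thinning of the deep library and leaving out libraries. Promoters were matched by symbol or synonym for 9241 of 11786 genes (78.4%), so shares over genes tested are incomplete.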

Additional observations from a re-analysis of the deposited data

Results flagged for a closer look

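The drug effect differed between 24 h and 96 h by the test of the difference itself for every gene named by rule apart from PRMT5, MDM2, CCND2 and the untested PRDM1, among those reported here. Most of these genes were chosen by the rule for this difference, so their number is no result. The difference of effects (log2, 96 h minus 24 h) follows in parentheses. Of the genes chosen by name, and not by their values, these were WDR77 (-0.32), BCL6 (0.15), MYC (-0.49) and CDKN1A (-0.46). In genes whose effect grew upwards they were ENPP3 (1.43), LUC7L (1.18), SLC30A4 (1.02), MYBL1 (0.93), PRPF3 (0.46), BACH2 (0.45), ATM (0.87), NOP2 (0.68), HLA-DMB (0.67), NFKBID (0.57) and HIST1H2BK (0.685). Among genes whose effect grew downwards they were RRM2 (-1.47), FAH (-1.08), OXCT1 (-1.07), TYMS (-1.05), XBP1 (-0.90), POLA2 (-0.72), CCNE2 (-0.87) and KIF20A (-0.65). Late genes with a positive difference were CABP4 (1.30), PRELP (1.20), PPP2R5B (1.08), LCK (1.05), CASP8 (0.465), RFX5 (0.225), BCL2L11 (0.34), HIST1H3H (0.66) and SNHG3 (0.35). Late genes of DNA replication, division and repair with a negative difference were FEN1 (-0.59), CDC25A (-0.75), MKI67 (-0.34) and EXO1 (-0.65). Those of ribosome biogenesis, the Sm, LSm and SMN list and the proteasome were NOP16 (-0.34), GEMIN4 (-0.32), SNRPA (-0.48), PSMC3 (-0.33) and PSMB4 (-0.23). Late genes of metabolism and stress with a negative difference were TXN (-1.11), ALDH1B1 (-0.95), ACAD9 (-0.82), DHCR7 (-0.41), ACAT2 (-0.41), UQCRC1 (-0.40), CYC1 (-0.43), ENO1 (-0.34), GAPDH (-0.39), PPP1R15A (-0.48), EIF4EBP1 (-0.57) and FDXR (-0.58). Other late genes with a negative difference were TMEM141 (-0.81), IRF4 (-0.48), BCL2A1 (-0.85) and GAS5 (-0.30).

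The sign of the effect itself changed in TNF (-0.61), C21orf56 (-0.61), LYAR (-0.51) and PRMT1 (-0.47) from higher to lower, and in H1FX (0.82), NDRG4 (0.78), LOC100506123 (0.62), LOC100506686 (0.57) and XPC (0.23) from lower to higher, where the 96 h effects of LOC100506123 and XPC were not called in their own libraries (adjusted p = 0.054 and 0.10). A faded effect was found in C22orf46 (0.32). Dixon's outlier test was not applied to these groups of 3 samples.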

How the results depend on the processing

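No gene called in the difference had the opposite sign under any of 23 alternatives, and the count of calls lay between 3111 and 3701 with DESeq2 (3701), limma voom (3464), library sizes alone (3268), DESeq2's size factors (3329), filterByExpr (3298), no filter (3173), a filter of 5 CPM (3111) and the deep library thinned (3322). The 23 alternatives refit all or most of the same libraries, so a change of sign in a called gene was unlikely from the start. Without both 96 h libraries numbered 2 there were 5791 calls, 2804 higher and 2987 lower, with 1030 grown, 4574 late, 22 faded and 165 reversed genes, of which 63 were called at both times. With limma voom 5 genes faded. Leaving out 1 library at a time gave 2028 to 5536 calls, 973 to 2773 higher and 993 to 2763 lower, 957 to 2217 calls at 24 h and 3210 to 6845 at 96 h in their own libraries. It gave 297 to 1008 grown, 1484 to 4365 late, 2 to 9 faded and 35 to 154 reversed genes, and 14 to 58 called at both times. The cause was not tested.

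The replicate numbers shared by the groups were checked for pairing. Deviations of same-numbered vehicle and GSK591 libraries from their group means correlated across genes at -0.00071, 0.20 and 0.078 at 24 h and 0.45, 0.31 and 0.0096 at 96 h for numbers 1, 2 and 3. Not every correlation was over 0.1, and no label ties the numbers to a shared source, so the numbers were not taken as pairs. With a replicate block within each time 4355 genes were called, with 1153 grown and 218 reversed, 88 of them called at both times. With a replicate block over both times the counts were 4164, 1105, 209 and 88.

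Of the named genes reported here, BCL6 lost its call with no filter and with filterByExpr (adjusted p = 0.158 and 0.0589) and CDKN1A with voom (0.0787). Besides BCL6 and CDKN1A, no named gene lost its call when 1 library was left out, which the naming rule fixes for most of them. A late gene may have had an early effect that was not detectable at this depth and number of libraries. Genes under about 1 CPM were not tested.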

Other observations

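Some genes below the expression level set for naming have a known link to the aryl hydrocarbon receptor. They were chosen here after their values were seen. Of 6 genes with that link 3 were called, against 28.1% of all genes tested, and a count of so few chosen genes is no result. CYP1A1, a monooxygenase that this receptor induces, stood at 1.93, 2.25 and 2.08 CPM in vehicle and 1.95, 1.42 and 1.91 CPM in GSK591 at 24 h. At 96 h it stood at 4.91, 3.61 and 4.65 CPM in vehicle and 12.7, 10.98 and 11.7 CPM in GSK591 (difference 1.65 ± 0.20, adjusted p = 0.00039). CYP1A2, its neighbour in the genome, had 2.08 ± 0.35 and AHRR, the repressor of the receptor, 1.10 ± 0.28. Each was called in all 12 fits that left out 1 library. TIPARP (0.09 ± 0.08, adjusted p = 0.43) and the receptor gene AHR itself (-0.14 ± 0.07, adjusted p = 0.13) were not called, nor was NQO1 (-0.71 ± 0.26, adjusted p = 0.053).

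Other low-expressed genes with 2-fold or larger differences that were called in all 12 of those fits were CAMK2B, a calcium-dependent kinase subunit (1.91 ± 0.51), the TEC-family kinase TXK (1.59 ± 0.22), and, in the other direction, the ciliary gene B9D1 (-1.44 ± 0.34) and RFX2, a transcription factor of ciliated cells (-1.32 ± 0.27). TXK stood at 4.77, 3.44 and 5.50 CPM in vehicle and 19.9, 14.8 and 14.1 CPM in GSK591 at 96 h.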
